A study of Mus musculus with 20 samples.

Results

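Gene expression in whole AKR/N testes was compared between 12 h and 8 h after a short heat shock, with 2 arrays at each time. These 4 arrays, of 20 in the series, were taken by their titles. The choice to compare 12 h with 8 h was made with earlier results of these data known. It avoids the control arrays, as a control array had a raised HSP70 level. Both groups were testes of 8-week-old AKR/N mice, an inbred strain, that had been exposed to 43 °C for 15 min, and they differed in the labels only in the time of sampling. The other groups set beside them were AKR/N testes 10 h and 24 h after the same heat shock, C57BL/6 testes 12, 10 and 8 h after it, and unheated AKR/N testes, again with 2 arrays each. Total RNA was read on an Affymetrix mouse array after a labelling that starts from the 3' end of the messenger RNA. Nothing in the labels tells whether replicate arrays stand for different animals, and the p-values therefore measure only the spread between arrays, which could be technical. Time after heat and the hour of sampling cannot be told apart here.

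The testis is kept below body temperature, and its meiotic and early haploid germ cells are known to be harmed by heat. Heated cells switch on the heat shock factor program within minutes, in which chaperones refold or hold damaged proteins, and the messenger RNA of the inducible HSP70 genes is known to decay early in recovery. Slower programs follow in many tissues, among them p53 targets that stop the cell cycle, antioxidant genes under NRF2, and repair of junctions and cytoskeleton. Sertoli cells, the somatic nurse cells of the seminiferous tubule, and Leydig cells, which make testosterone, share the organ with the germ cells.

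The 2 arrays of each time agreed across genes, with r = 0.978 at 12 h and 0.988 at 8 h. The median signal of the 20 arrays lay between 24.9 and 34.9, and the number of arrays limits the precision. A sign of RNA quality moved with time. The signal ratio of the 3' to the 5' probe set of beta-actin was 2.74 and 2.62 at 12 h, against 1.91 and 1.93 at 8 h. The same ratio for Gapdh was 1.28 and 1.29 at 12 h, against 0.985 and 0.997 at 8 h. Both 12 h arrays lay above both 8 h arrays in these ratios, and the part of this in the results was not tested by the design. With the beta-actin ratio added to the fit as a covariate, chosen after seeing the data, 4 of the 1103 calls given below remained. All 1103 kept their sign there, and their changes had a median of 0.97 of the size without it. The slope of this covariate comes only from differences between the 2 arrays of a group, while the ratio moved with time. This fit therefore does not test the part of RNA quality in the changes.

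At 12 h, 1103 of 15614 genes tested differed from 8 h at an adjusted p under 0.05 (7.06%), of which 636 were higher (4.07%) and 467 were lower (2.99%). A gene was called by limma on log2(signal + 16) with Benjamini-Hochberg adjustment, and every adjusted p below is of this kind. The error given with a change is its standard error (SE), with 2 arrays a group and the spread pooled over the 16 heated arrays. The change reached 2-fold in 158 of the genes that rose and in 57 of those that fell, and it reached 4-fold in 5 that rose and in 0 that fell. The median change of all genes tested was 0.05. Among the genes that rose, 61 had signals under the filter value of 17.6 on both 8 h arrays, and among those that fell, 27 had such signals on both 12 h arrays. The log2(signal + 16) scale understates changes of such low genes. When each array was centred on its median, the median change of all genes became −0.06, and 231 genes were higher and 370 lower. When 1 of the 4 arrays was left out, 35 calls were made without 12 h replicate 1, 616 without 12 h replicate 2, 66 without 8 h replicate 1 and 97 without 8 h replicate 2. All 1103 genes kept their direction in these 4 fits, and 29 of them stayed called in all 4. Both 12 h arrays lay above both 8 h arrays in 32.8% of all genes tested and below them in 25.1%. All 636 and all 467 called genes had no overlap between the times, so the lack of overlap in a called gene adds nothing to its call. The same lack of overlap fixes in advance that a called gene keeps its direction when 1 of these arrays is left out. Counts in the gene lists below stand beside 7.06% called among all genes. Where members with a change above 0 are counted, 8689 of all 15614 genes tested had such a change. Fewer cells of a type and less RNA per cell cannot be told apart in whole testes.

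The largest rise was in the gene of a cytokine receptor. Tnfrsf12a, the receptor of the cytokine TWEAK, had signals of 281 and 188 at 12 h, against 9.28 and 21.1 at 8 h. Its 12 h and 8 h arrays were far apart, and its level changed by 3.01 ± 0.39 on the log2 scale (SE, adjusted p = 0.00345). Without 12 h replicate 1 its call was lost, at an adjusted p of 0.0574. Cdr2l had 125 and 117 at 12 h, against 11.4 and 10.6 at 8 h (2.34 ± 0.40, adjusted p = 0.00999). The receptor of oncostatin M, Osmr, had 152 and 75.9 at 12 h, against 20.4 and 18.3 at 8 h (1.81 ± 0.29, adjusted p = 0.0081). Csf1, the growth factor of macrophages, had 185 and 142 at 12 h, against 22.0 and 44.9 at 8 h (1.89 ± 0.30, adjusted p = 0.00865). In each of these genes both 12 h arrays were above both 8 h arrays, as in every gene called higher, which adds nothing to their calls. Arid5a, an RNA-binding regulator of inflammatory messages, rose by 1.64 ± 0.26 (adjusted p = 0.00775). Of the 14 largest called rises, 6 were kept without 12 h replicate 1, 13 without 12 h replicate 2, 8 without 8 h replicate 1 and 10 without 8 h replicate 2. Cdr2l and Osmr were lost without 12 h replicate 1 and without either 8 h array, and Csf1 and Arid5a without 12 h replicate 1 and without 8 h replicate 1. Other probe sets of Cdr2l, Osmr and Csf1 changed less, by 0.11 in Cdr2l, 0.25 in Osmr and −0.38 to 1.01 in Csf1. In the list of 20 cytokine and chemokine genes tested, 4 rose, 1 fell and 15 did not pass, and the median was 0.07. The other members that rose were Il11, by 0.80 ± 0.12 (adjusted p = 0.00634), and Nfkbia, the inhibitor that holds NF-kB in the cytoplasm. Nfkbia had 1630 and 1567 at 12 h, against 396 and 916 at 8 h. The member that fell was Ptgs2, the inducible cyclooxygenase, at 4.38 and 3.16 at 12 h, against 17.4 and 19.9 at 8 h, signals at the low end of the array. Of these 5 calls, 0 were kept without 12 h replicate 1, 3 without 12 h replicate 2, 2 without 8 h replicate 1 and 3 without 8 h replicate 2.

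Targets of p53 were higher at 12 h in 7 of 21 tested, and 0 were lower. The median of the 21 was 0.61, and 17 had a change above 0. Cdkn1a, which encodes the cyclin-dependent kinase inhibitor p21, had 668 and 521 at 12 h, against 82.5 and 106 at 8 h. The change was 2.47 ± 0.26 (adjusted p = 0.00299). Ccng1, the gene of cyclin G1, had 424 and 332 at 12 h, against 90.1 and 82.7 at 8 h (1.94 ± 0.23, adjusted p = 0.00345). Another probe set of Cdkn1a changed by 0.70, and those of Ccng1 by 1.07 and 1.14. Phlda3, an inhibitor of AKT signalling, had 122 and 88.1 at 12 h, against 27.1 and 25.5 at 8 h (1.5 ± 0.26, adjusted p = 0.0108). The stress-induced kinase gene Plk2 rose by 1.23 ± 0.25 (adjusted p = 0.0203) and the nuclease gene Aen by 1.12 ± 0.17 (adjusted p = 0.00668). Other probe sets of Aen changed by 0.41 and 0.42. Fas, a death receptor, had 29.2 and 20.5 at 12 h, against 1.68 and 2.96 at 8 h (adjusted p = 0.0237), and Perp, a desmosome protein, rose by 0.89 ± 0.23 (adjusted p = 0.0417). These members stop division, act in cell death or signal stress. Cdkn1a and Ccng1 were called in all 4 fits that left out an array, and of the 7, 2 were kept without 12 h replicate 1, 6 without 12 h replicate 2, 2 without 8 h replicate 1 and 3 without 8 h replicate 2.

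Of 28 genes of the apoptosis machinery, 1 rose, 2 fell and 25 did not pass, with a median of 0.07, and the 10.7% called stood near the 7.06% of all genes. Mcl1, a survival member of the BCL2 family, had 843 and 620 at 12 h, against 397 and 482 at 8 h (0.70 ± 0.18, adjusted p = 0.0436). Its other probe sets changed by 0.06 to 0.71. Bik and Bad, BH3-only genes that promote death, fell. Bik had 13.7 and 25.4 at 12 h, against 49.0 and 48.6 at 8 h (adjusted p = 0.0345), and Bad had 281 and 216 at 12 h, against 463 and 453 at 8 h (adjusted p = 0.0388). None of these 3 calls was kept without 12 h replicate 1, without 8 h replicate 1 or without 8 h replicate 2. Immediate early and stress transcription genes gave 3 that rose, 0 that fell and 28 that did not pass. They were Klf10 (0.72 ± 0.17, adjusted p = 0.0311), Jund (0.66 ± 0.16, adjusted p = 0.0353) and Rhob (0.89 ± 0.24, adjusted p = 0.0482). A further probe set of Jund changed by −0.77. Egr1, the immediate early transcription factor gene, varied more within a time than between times, with 794 and 461 at 12 h, against 2157 and 395 at 8 h (−0.60 ± 0.75, adjusted p = 0.658). None of the 3 rises was kept without 12 h replicate 1 or without either 8 h array.

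**Figure D1:**
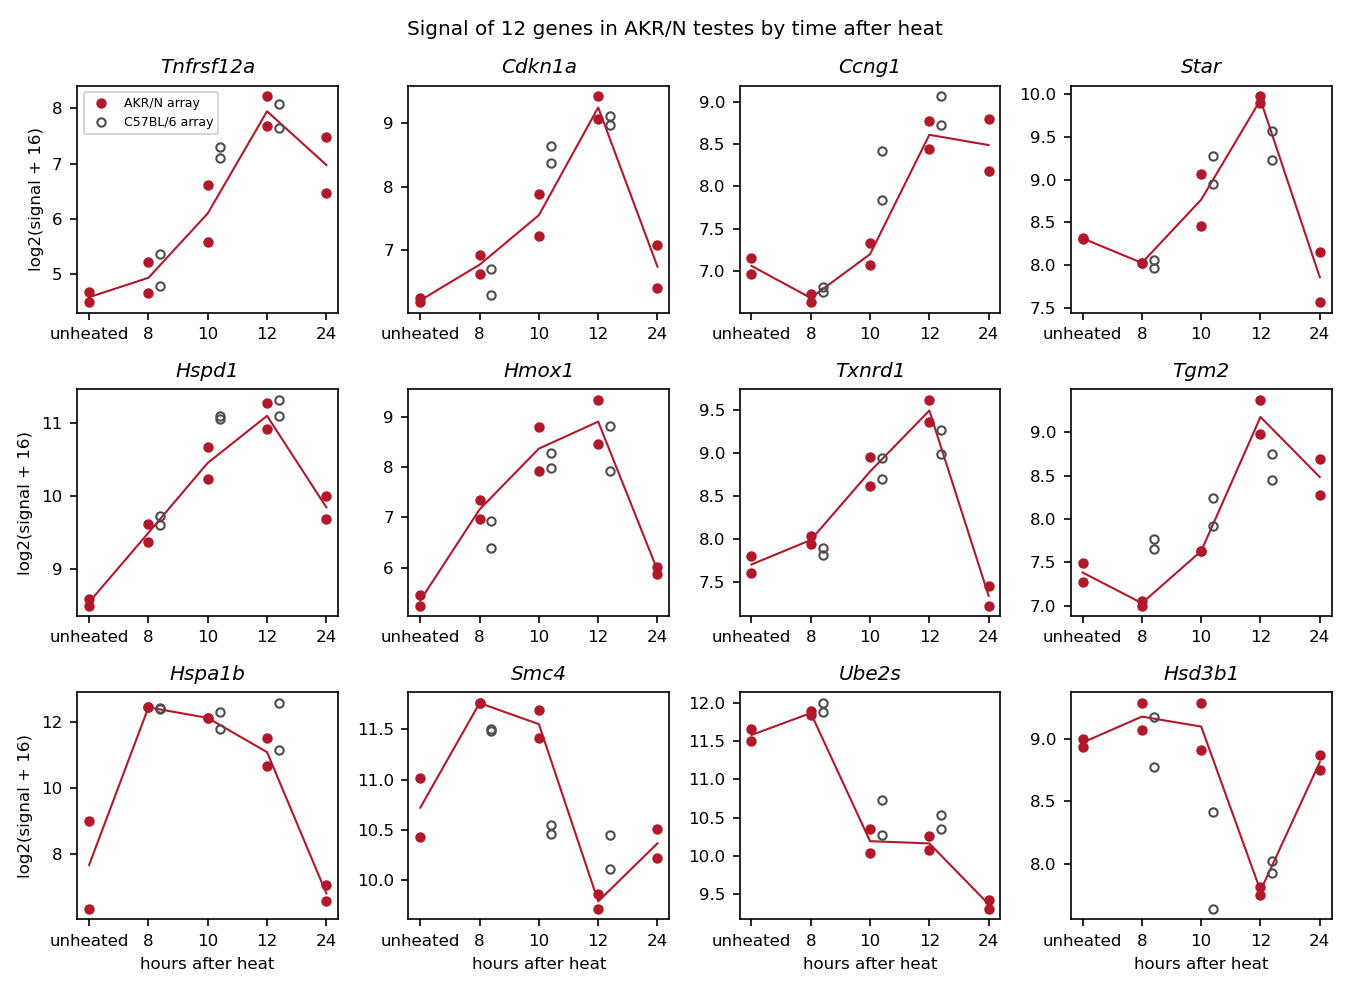
Log2(signal + 16) of 12 genes against hours after heat, with unheated AKR/N testes at the left end of each panel. Filled red points are AKR/N arrays joined through group means, and open points are C57BL/6 arrays at 8, 10 and 12 h. By group mean, Cdkn1a, Ccng1 and Star are highest at 12 h in AKR/N, while Hspa1b at 24 h lies between its unheated arrays.

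Of 25 heat shock chaperones tested, 5 rose, 1 fell and 19 did not pass, with a median of 0.07. The pair that forms the mitochondrial folding chamber rose together. Hspd1, its barrel subunit, had 2459 and 1926 at 12 h, against 649 and 771 at 8 h (1.60 ± 0.18, adjusted p = 0.00342). Hspe1, its lid, had 3456 and 3048 at 12 h, against 955 and 1435 at 8 h (1.46 ± 0.20, adjusted p = 0.0048). Hspb1 and Cryab, small heat shock proteins that hold unfolded proteins, also rose. Cryab had 462 and 347 at 12 h, against 133 and 95.6 at 8 h (1.69 ± 0.20, adjusted p = 0.00345), and unheated testes had 11.1 and 28.3. Other probe sets of Cryab changed by 1.45 and −0.05. Hspb1 had 4662 and 4297 at 12 h, against 2051 and 2413 at 8 h (1.0 ± 0.16, adjusted p = 0.00763). Hspa8, the constitutive cytosolic HSC70 gene, had 5288 and 5189 at 12 h, against 2389 and 2821 at 8 h (1.01 ± 0.12, adjusted p = 0.00345). Of its other probe sets, 1 changed by −1.09 and the others by 1.13 and 1.10. The member that fell, the small heat shock protein gene Hspb6, had 198 and 244 at 12 h, against 341 and 362 at 8 h (−0.64 ± 0.14, adjusted p = 0.0244). Hspa8, Hspd1 and Cryab stayed called in each fit that left out an array, and of the 6 calls 3 were kept without 12 h replicate 1, 4 without 8 h replicate 1 and 5 without 8 h replicate 2.

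The inducible HSP70 genes, which are near-identical in sequence so that their probe sets may read both, did not pass the test. Hspa1b had 2874 and 1597 at 12 h, against 5516 and 5515 at 8 h, and both 12 h arrays lay below both 8 h arrays (−1.36 ± 0.44, adjusted p = 0.0849). Hspa1a had 2108 and 1008 at 12 h, against 3359 and 2572 at 8 h (−1.0 ± 0.60, adjusted p = 0.321). At 24 h Hspa1b stood at 78.3 and 116. The unheated arrays differed from each other, with 64.7 on replicate 1 and 493 on replicate 2, and they enter no test here. Hsph1, the HSP110 gene, had 1422 and 1011 at 12 h, against 761 and 804 at 8 h (0.61 ± 0.25, adjusted p = 0.157). Dnajb1, the HSP40 partner of HSP70, had 2650 and 2582 at 12 h, against 3328 and 3329 at 8 h (−0.35 ± 0.13, adjusted p = 0.13). Of 18 DNAJ co-chaperones, 1 rose, Dnajb4 (0.47 ± 0.12, adjusted p = 0.0425), and its call was lost without any 1 of the 4 arrays. Other probe sets of Dnajb4 changed by 0.49 and −0.33. Among 13 testis-enriched chaperones 0 were called, with a median of 0.01, and Hspa2, the meiotic HSP70 gene, had 1663 and 1703 at 12 h, against 2131 and 2090 at 8 h (adjusted p = 0.313).

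Heat shock factor binds repeats of a short unit, and 3 promoters that hold it are shown, from 2 chaperone genes that rose and 1 that fell. The 200 bases before the start of Hspe1 (chr1:55087948-55088147), of Hspb1 (chr5:135887719-135887918) and a start of Hspb6 (chr7:30553101-30553300), all on the plus strand of GRCm38.p6 as given by RefSeq, are printed with matches to GAANNTTC or TTCNNGAA in capitals, which are the same unit facing its copy either way round. Each of these motifs reads the same on both strands.
Hspe1: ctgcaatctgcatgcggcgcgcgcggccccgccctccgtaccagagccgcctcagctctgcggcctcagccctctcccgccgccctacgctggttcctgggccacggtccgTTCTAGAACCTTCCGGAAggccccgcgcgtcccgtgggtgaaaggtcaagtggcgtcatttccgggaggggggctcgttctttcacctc
Hspb1: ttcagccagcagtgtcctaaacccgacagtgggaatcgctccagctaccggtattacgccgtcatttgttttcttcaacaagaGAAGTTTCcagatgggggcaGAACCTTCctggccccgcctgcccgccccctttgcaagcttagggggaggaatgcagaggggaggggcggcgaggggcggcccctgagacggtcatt
Hspb6: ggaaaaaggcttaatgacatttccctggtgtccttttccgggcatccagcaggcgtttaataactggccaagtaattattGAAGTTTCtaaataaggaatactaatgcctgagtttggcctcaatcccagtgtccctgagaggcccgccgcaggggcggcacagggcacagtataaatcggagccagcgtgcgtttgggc
Hspe1 holds 3 matches that overlap, between 89 and 72 bases before its start. Hspb1 holds 2, between 117 and 90 bases before its start, and Hspb6, which fell, holds 1 in this window, from 120 to 113 bases before that start. Of the 2 annotated starts of Hspd1, which faces the other way, 1 lies 216 bases from that of Hspe1, with the matches of Hspe1 between them, and the other lies past the start of Hspe1, where its upstream window does not reach them. Either motif was found in 10.39% of 32851 promoter windows of the same length, and in 11.83% of the 27025 genes with a window. In the chaperone list it was found in 10 of 20 genes with a window, among them Hspa1a, Hspa1b, Hsph1, Fkbp4, Cct2 and Cct5, which were not called.

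Antioxidant genes rose in 5 of 22, and 0 fell. The median of the 22 was 0.39, and 18 were above 0. Hmox1, which breaks down haem, had 633 and 337 at 12 h, against 110 and 147 at 8 h (1.74 ± 0.37, adjusted p = 0.0223). The thioredoxin reductase gene Txnrd1 had 771 and 643 at 12 h, against 229 and 246 at 8 h (1.51 ± 0.17, adjusted p = 0.00304). Nfe2l2, which encodes NRF2, the transcription factor of this program, had 330 and 306 at 12 h, against 150 and 127 at 8 h (1.12 ± 0.13, adjusted p = 0.00345). A weaker probe set of Txnrd1 changed by −0.23 and one of Nfe2l2 by −0.26. Thioredoxin, Txn1, rose by 0.88 ± 0.13 (adjusted p = 0.00678) and glutathione reductase, Gsr, by 1.03 ± 0.26 (adjusted p = 0.0406). Outside the list, Cbr3, a carbonyl reductase gene, had 171 and 184 at 12 h, against 28.5 and 43.8 at 8 h (1.91 ± 0.39, adjusted p = 0.0203). Txnrd1 and Nfe2l2 stayed called in each fit that left out an array. Hmox1, Txn1 and Gsr were lost without 12 h replicate 1, without 8 h replicate 1 and without 8 h replicate 2, and Cbr3 without any 1 of the 4 arrays. NRF2 binds the antioxidant response element, and 200 bases before a start of Txnrd1 (chr10:82859006-82859205, plus strand, GRCm38.p6, RefSeq) are printed with a match to TGACNNNGC in capitals, on the minus strand, from 92 to 84 bases before the start.
Txnrd1: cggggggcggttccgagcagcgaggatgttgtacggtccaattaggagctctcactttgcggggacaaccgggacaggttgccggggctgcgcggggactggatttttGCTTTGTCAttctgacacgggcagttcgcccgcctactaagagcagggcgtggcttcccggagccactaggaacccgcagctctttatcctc
This was 1 of 3 windows of the gene. On either strand, the motif was found in 8.602% of all windows and in 9.765% of all genes with a window. Of the 3 called antioxidant genes with a window, Txnrd1 held it, while Nfe2l2 and Txn1 did not, and 4 of 19 genes of the list with a window held it.

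Unfolded protein and integrated stress response genes rose in 4 of 27 and fell in 1, with a median of 0.15. Sqstm1, an autophagy receptor gene, had 1114 and 1007 at 12 h, against 439 and 527 at 8 h (1.11 ± 0.16, adjusted p = 0.00563). Xbp1, a transcription factor gene of the unfolded protein response, had 505 and 358 at 12 h, against 160 and 222 at 8 h (1.11 ± 0.19, adjusted p = 0.0111). Ern1, the gene of the sensor that splices Xbp1, rose by 1.14 ± 0.24 (adjusted p = 0.0223) and Atf5 by 0.81 ± 0.15 (adjusted p = 0.0134). Other probe sets of Ern1 changed by only 0.10, 0.25 and 0.15. The member that fell was Sdf2l1, an endoplasmic reticulum chaperone partner, at 74.1 and 106 at 12 h, against 199 and 227 at 8 h (−1.12 ± 0.24, adjusted p = 0.0223). Without 12 h replicate 1, 0 of these 5 calls were kept, without 12 h replicate 2, 3, without 8 h replicate 1, 1, and without 8 h replicate 2, 2.

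In the actin cytoskeleton and adhesion list 6 of 24 rose and 0 fell, the median was 0.38, and 21 were above 0. Vim, the intermediate filament gene of Sertoli and other somatic cells, had 1486 and 1262 at 12 h, against 573 and 628 at 8 h (1.17 ± 0.15, adjusted p = 0.00345). Myh9, a non-muscle myosin gene, had 587 and 585 at 12 h, against 224 and 238 at 8 h (1.28 ± 0.22, adjusted p = 0.0099). Tpm4, a tropomyosin gene, had 156 and 173 at 12 h, against 54.3 and 73.0 at 8 h (1.19 ± 0.19, adjusted p = 0.0092). Cnn3, Actn1 and Tpm1, which also encode actin-binding proteins, rose by 1.07, 0.92 and 0.76. Among 18 junction genes of the blood-testis barrier 4 rose and 0 fell, with a median of 0.31. Ctnna1, the catenin that links cadherins to actin, had 855 and 823 at 12 h, against 389 and 430 at 8 h (1.01 ± 0.17, adjusted p = 0.0099). Itga6, an integrin gene, had 245 and 257 at 12 h, against 87.5 and 98.7 at 8 h (1.29 ± 0.27, adjusted p = 0.0223), and Vcl and Esam rose by 0.66 and 0.84. The protein-crosslinking enzyme gene Tgm2 had 650 and 488 at 12 h, against 117 and 112 at 8 h (2.15 ± 0.18, adjusted p = 0.000804). Mpzl2, an epithelial adhesion gene, had 169 and 124 at 12 h, against 25.1 and 18.9 at 8 h (2.09 ± 0.25, adjusted p = 0.00345). Of the other probe sets of Mpzl2, 1 changed by −0.13 and 1 by 1.42. With a pseudocount of 1 the probe set of highest mean was picked anew, and Mpzl2 was read from another probe set. Its call was lost there and its change was −0.18. Tgm2 and Mpzl2 stayed called in each fit that left out an array, while 0 of the 6 cytoskeleton calls and 0 of the 4 junction calls were kept without 12 h replicate 1. Without 8 h replicate 1, 1 and 0 were kept, and without 8 h replicate 2, 2 and 0. Without 12 h replicate 2, 4 and 1 were kept.

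Some markers of Sertoli and endothelial cells also rose. Of 22 Sertoli cell markers tested, 5 rose and 0 fell, with a median of 0.24 and 13 members above 0. The summed signal of all 24 on the array was 24888 and 23506 at 12 h, against 20854 and 19835 at 8 h. Beside Vim, the members that rose were Sox9, the transcription factor gene that sets Sertoli identity (1.05 ± 0.16, adjusted p = 0.00613), and Kitl, the ligand of the germ cell receptor KIT (1.19 ± 0.24, adjusted p = 0.0203). Other probe sets of Sox9 changed by 0.87 and −0.39, and those of Kitl by 0.58, 0.05 and 0.15. Clu, a secreted chaperone, had 5870 and 5811 at 12 h, against 4165 and 4301 at 8 h (0.46 ± 0.10, adjusted p = 0.0246), and Aard rose by 0.54 ± 0.14 (adjusted p = 0.0475). Of these 5 calls, 0 were kept without 12 h replicate 1, 3 without 12 h replicate 2, and 1 without either 8 h array. Of 12 endothelial markers 2 rose, the VEGF receptor gene Kdr by 1.0 ± 0.21 (adjusted p = 0.0222) and Esam, and the summed signal of 14 such markers was 740 and 639 at 12 h, against 484 and 462 at 8 h. Without 12 h replicate 1, or without either 8 h array, 0 of these 2 calls were kept. Macrophage and leukocyte markers gave 0 calls among 22, with 19 above 0, and their sums were 5231 and 5281 at 12 h, against 5101 and 4496 at 8 h. Peritubular myoid markers gave 0 calls among 15 and neutrophil markers 0 among 8. Red blood cell, epididymis, adipose and liver or plasma markers gave 0 calls among 2, 5, 6 and 2 tested. The part of cell mixture in the rises of junction and cytoskeleton genes was not tested.

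Among the Leydig cell markers, read in whole testes, genes of the same steroid pathway went in opposite directions. Star, which carries cholesterol into mitochondria at the rate-limiting step, had 988 and 932 at 12 h, against 246 and 245 at 8 h (1.90 ± 0.23, adjusted p = 0.00345). Cyp11a1, which cleaves the cholesterol side chain there, had 672 and 619 at 12 h, against 431 and 375 at 8 h (0.66 ± 0.16, adjusted p = 0.0352), but its other probe set changed by 0.04. Hsd3b1, a dehydrogenase of the next step, had 210 and 200 at 12 h, against 607 and 520 at 8 h (−1.39 ± 0.23, adjusted p = 0.00945). Akr1cl had 1160 and 916 at 12 h, against 1926 and 1955 at 8 h (−0.90 ± 0.21, adjusted p = 0.0302), but its other probe set changed by 1.43. Of 11 Leydig markers tested, 2 rose, 2 fell and 7 did not pass, with a median of 0.14, and their sum was 9298 and 8725 at 12 h, against 8978 and 8551 at 8 h. The sums of both times overlapped. Star stayed called in each fit that left out an array. Hsd3b1 was lost without 12 h replicate 1 and without either 8 h array, and Cyp11a1 and Akr1cl were lost in all 4. In the list of cholesterol synthesis and uptake, Dhcr7, the last enzyme of the pathway, rose by 1.24 ± 0.18 (adjusted p = 0.00566) and Mvk, mevalonate kinase, fell by 1.2 on the log2 scale (adjusted p = 0.0237), and 16 of 18 did not pass. The Dhcr7 call was lost without 12 h replicate 1 and without 8 h replicate 2, and the Mvk call without any 1 of the 4 arrays.

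**Figure D2:**
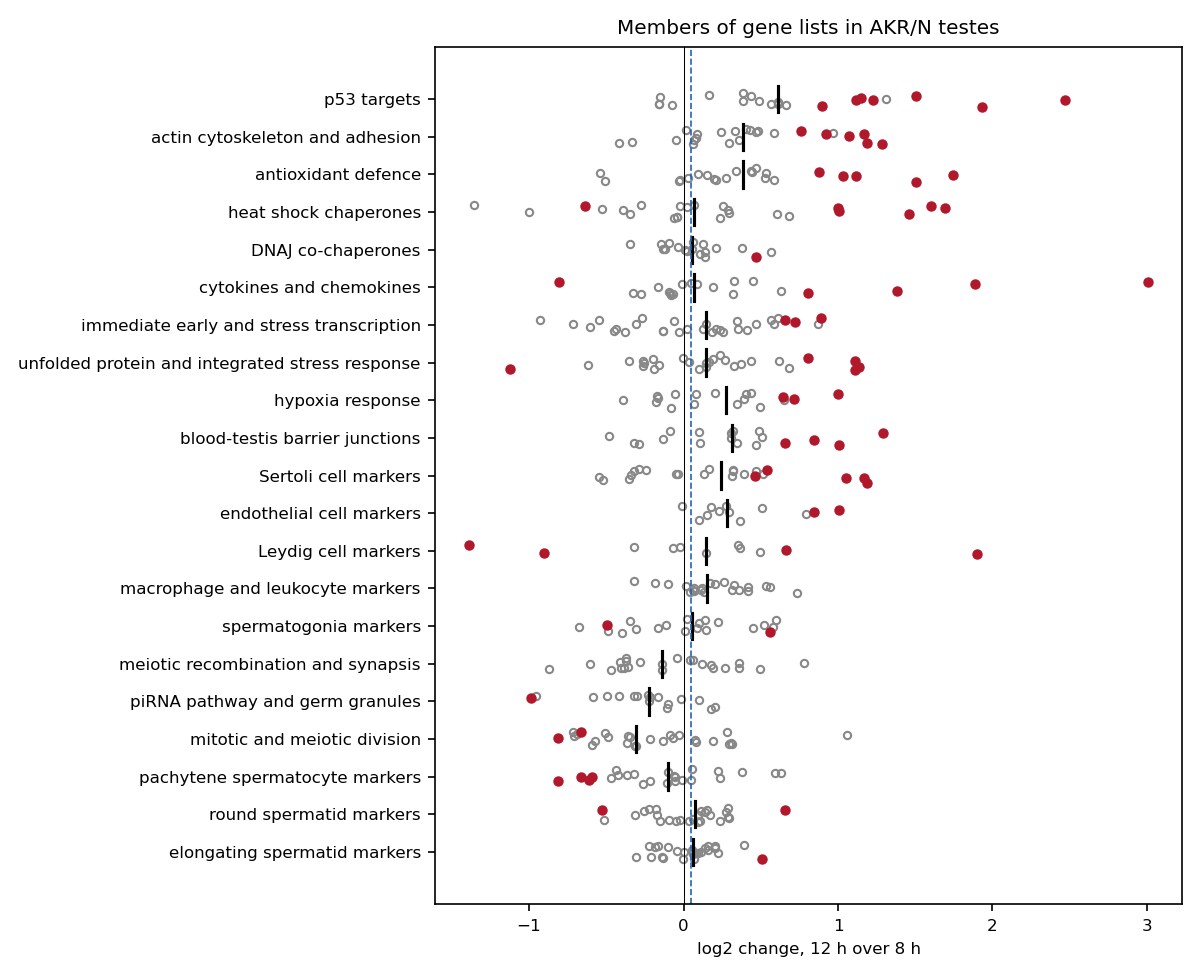
Log2 change of 12 h over 8 h in AKR/N testes for each tested member of 21 gene lists, with called members in red and the others open. Short black bars are list medians and the dashed line is the median of all genes tested, 0.05. The p53 targets have the highest median shown, 0.61, and the mitotic and meiotic division list the lowest, −0.31.

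The largest fall among called genes was that of Smc4, a condensin subunit gene needed to compact chromosomes. It had 917 and 826 at 12 h, against 3459 and 3446 at 8 h (−1.97 ± 0.16, adjusted p = 0.000796). Its other probe sets changed by −0.86 and −0.58. Ube2s, the ubiquitin-conjugating enzyme of the anaphase-promoting complex, had 1059 and 1205 at 12 h, against 3777 and 3652 at 8 h (−1.70 ± 0.17, adjusted p = 0.00184), while its other probe set changed by 0.66. The groups lay far apart in both genes, and both stayed called in each fit that left out an array. Beside them, Pou5f2, a POU factor gene of male germ cells, Gldc, the glycine decarboxylase gene, and Speer4cos were the other falls that stayed called in all 4 such fits, and these 3 were singled out after their values were seen. Pou5f2 had 152 and 151 at 12 h, against 378 and 379 at 8 h (−1.24 ± 0.16, adjusted p = 0.00345). Gldc had 29.9 and 31.5 at 12 h, against 105 and 81.8 at 8 h (−1.22 ± 0.15, adjusted p = 0.00345). Tcea2, a transcription elongation factor gene, fell by 1.43 on the log2 scale (adjusted p = 0.00705), and Rnf112, a RING finger gene, had 26.5 and 25.1 at 12 h, against 126 and 97.9 at 8 h (adjusted p = 0.00865). The other probe set of Tcea2 changed by 0.32, and those of Rnf112 by −0.42 and −0.33. Vapb, which tethers the endoplasmic reticulum to other membranes, had 42.8 and 50.3 at 12 h, against 180 and 182 at 8 h (−1.66 ± 0.28, adjusted p = 0.0102), with its other probe sets at 0.60 and 0.03. Tcea2 and Rnf112 were lost without 12 h replicate 1 and without 8 h replicate 1, and Vapb without these and without 8 h replicate 2.

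Mitotic and meiotic division genes as a list gave 0 rises and 2 falls among 27, or 7.41% called, about the 7.06% of all genes. Their median was −0.31 and 8 of them were above 0. Nek2, a centrosome kinase gene, had 850 and 1091 at 12 h, against 1699 and 1704 at 8 h (−0.81 ± 0.21, adjusted p = 0.0436). Its other probe sets changed by −0.76, −0.34 and 0.22. Aurkc, the aurora kinase of meiosis, had 323 and 317 at 12 h, against 500 and 535 at 8 h (−0.67 ± 0.15, adjusted p = 0.0252). Cdk1, the kinase of entry into division, had 293 and 385 at 12 h, against 528 and 594 at 8 h, and did not pass (adjusted p = 0.0729). Of 24 markers of pachytene spermatocytes, the cells in mid-meiosis, 4 fell and 0 rose, with a median of −0.10. They were Nek2 and Aurkc again, Ovol1 (−0.61 ± 0.12, adjusted p = 0.0203) and Spink2 (−0.59 ± 0.11, adjusted p = 0.017). The sum of the 24 was 50064 and 53421 at 12 h, against 57538 and 55373 at 8 h, so both 12 h arrays were lower. Of these 4 calls, 0 were kept without 12 h replicate 1 or without either 8 h array, and 1 without 12 h replicate 2.

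Meiotic recombination and synapsis genes gave 0 calls among 23, with a median of −0.14. In the piRNA pathway, which silences transposons, 1 of 17 fell and 0 rose, with a median of −0.22 and 3 members above 0. That gene was Pld6, at 189 and 210 at 12 h, against 385 and 439 at 8 h (−0.99 ± 0.16, adjusted p = 0.0081), and its call was lost without 12 h replicate 1 and without 8 h replicate 2. Piwil1, a piRNA-binding protein gene, had 671 and 880 at 12 h, against 894 and 903 at 8 h (adjusted p = 0.48). Among 19 mRNA-binding proteins of germ cells 3 rose and 0 fell (15.8% called, with a median of −0.10), namely Elavl1 (0.61 ± 0.13, adjusted p = 0.0213), Celf1 (0.82 ± 0.17, adjusted p = 0.0223) and Dazl (0.57 ± 0.14, adjusted p = 0.0389). None of these 3 was kept without 12 h replicate 1 or without either 8 h array. Other probe sets of Celf1 changed by −0.26 to 0.67, and those of Elavl1 by 0.01 to 0.61. Round spermatid markers gave 1 rise and 1 fall among 26, elongating spermatid markers 1 rise among 25, and spermatogonia markers 1 rise and 1 fall among 20. The summed signal of the 20 spermatogonia markers was 2972 and 2984 at 12 h, against 3580 and 3566 at 8 h, so both 12 h arrays were lower. Their median change was 0.05, about that of all genes tested, and 12 of the 20 were above 0. The member that fell was Uchl1, a ubiquitin hydrolase gene (−0.50 ± 0.13, adjusted p = 0.0446), and the one that rose was Stra8, which acts at entry into meiosis (0.56 ± 0.15, adjusted p = 0.0451). Neither call was kept without 12 h replicate 1, without either 8 h array or with arrays centred on their medians, and that of Stra8 was also lost without 12 h replicate 2. The sums of elongating spermatid markers overlapped, at 132725 and 149379 at 12 h, against 136222 and 132214 at 8 h. Cirbp, the cold-inducible RNA-binding gene, had 322 and 292 at 12 h, against 342 and 377 at 8 h (adjusted p = 0.362). In glycolysis 3 of 24 rose (Aldoa, Pgk1 and Ldhb), in the hypoxia list 3 of 18, in the proteasome 2 of 29, in ribosome biogenesis 2 of 24 and among interferon-stimulated genes 1 of 18, with 0 falls in each. RNA splicing factors gave 0 calls among 22.

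The times between and after were then used to place these changes. At 10 h, 1 gene differed from 8 h (0.0064%), Ube2s, which had 1034 and 1286 at 10 h (−1.67 ± 0.17, adjusted p = 0.00809), and 2121 genes had an unadjusted p under 0.05. Its call was lost without 10 h replicate 1 and without either 8 h array. Between 12 h and 10 h, 178 genes differed (1.14%), 115 higher (0.737%) and 63 lower (0.403%), and 1 to 39 were called when 1 array was left out. Cdkn1a, with 220 and 133 at 10 h, changed by 0.78 over 8 h (adjusted p = 0.264), and by 1.69 in the later interval (adjusted p = 0.0310), a call lost without either 12 h array and without 10 h replicate 2. Smc4 had 2702 and 3293 at 10 h, a change of −0.21 over 8 h, and its later change was −1.76 ± 0.16 (adjusted p = 0.00265). Hsd3b1 stood at 464 and 608 at 10 h (later change −1.31, adjusted p = 0.0359), and the later call was lost without any 1 of its 4 arrays, with centring and with a pseudocount of 1. Smc4 and Hsd3b1 were thus near their 8 h level at 10 h, whereas the 10 h means of Hspd1, from 1622 and 1187, and of Hmox1, from 432 and 228, lay between both times. Cd52, the gene of a leukocyte and epididymis surface protein, had 20 and 20.9 at 12 h, against 286 and 324 at 10 h and 23.9 and 15.4 at 8 h, and its 12 h against 10 h change was −3.13 ± 0.56 (adjusted p = 0.0359), a call lost without any 1 of its 4 arrays and with a pseudocount of 1. These intervals share arrays with the 12 h against 8 h comparison.

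To describe where the other arrays lay, each gene's level was placed on a scale on which the 8 h mean is 0 and the 12 h mean is 1. The scale comes from the same arrays that chose the genes, which by itself draws other arrays to places between 0 and 1. A median place between them is therefore not a test of a gradual change. For the 636 genes that rose, the median place of the 10 h arrays was 0.45 and 0.31, and that of the 24 h arrays was 0.71 and 0.80. For the 467 that fell, it was 0.56 and 0.34 at 10 h and 0.84 and 0.99 at 24 h. Replicate 1 at 10 h was therefore further along than replicate 2 by median place. It lay above replicate 2 in 445 of the 636 (69.97%, against 53.2% of all genes). Below replicate 2 it lay in 373 of the 467 (79.87%, against 46.8%). The median signal of the whole array was 31.8 on replicate 1 and 27.2 on replicate 2. The unheated arrays lay at 0.28 and 0.13 for the genes that rose and at 0.28 and 0.19 for those that fell. The 24 h and 10 h means were in no contrast behind the choice of genes, although these arrays entered the pooled spread and the filter on low values. Both 24 h arrays lay above both 10 h arrays in 371 of the 636 genes (58.33%, against 32.4% of all genes tested), and below them in 279 of the 467 (59.74%, against 29.1%). The beta-actin ratio was also higher at 24 h, at 2.14 and 2.17, against 1.87 and 1.99 at 10 h. That of Gapdh was not, at 1.05 and 0.993 at 24 h, against 1.07 and 1.08 at 10 h. The part of RNA quality here was not tested. The reverse order held in 88 of the 636 (13.84%, against 29.1% of all genes) and in 76 of the 467 (16.27%, against 32.4%). Not all followed: Star had 174 and 269 at 24 h, against 521 and 337 at 10 h, and Cdkn1a had 68.7 and 119 at 24 h, whereas Ccng1 had 274 and 431.

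**Figure D3:**
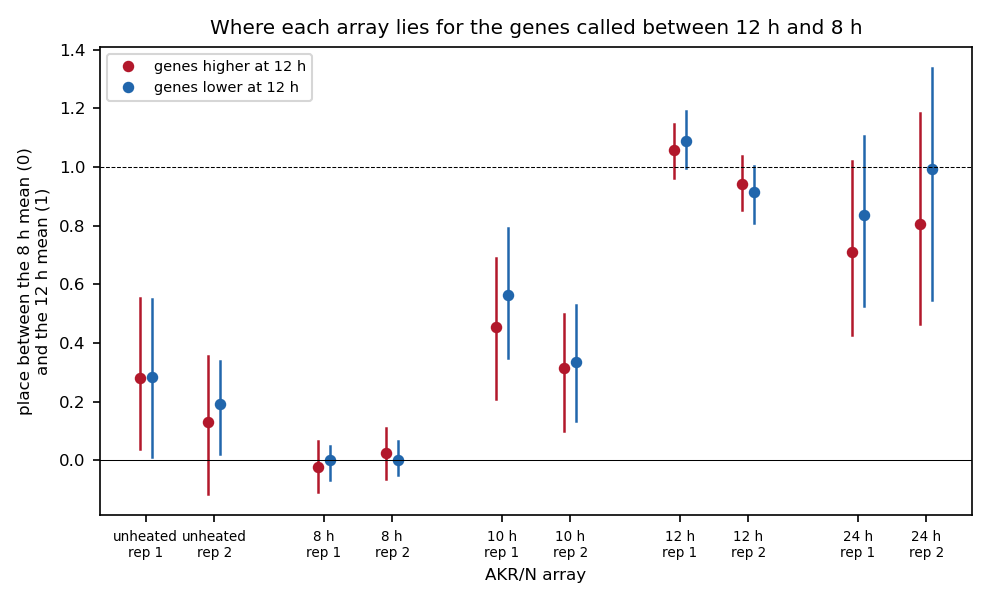
Place of each AKR/N array between the 8 h mean (0) and the 12 h mean (1), for the genes that rose (red) and fell (blue), with points at the median and lines from the lower to the upper quartile of genes. The 10 h arrays lie between 0.31 and 0.56, and the 24 h arrays between 0.71 and 0.99. The scale comes from the arrays that chose the genes, which by itself draws other arrays to places between 0 and 1.

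The same interval was compared in C57BL/6 testes. No array enters the group means of both strains, but each gene's spread comes from the same fit over 16 arrays, so the calls of the strains are not independent, and from each strain's 4 arrays alone 0 genes were called. In C57BL/6, 2415 genes differed between 12 h and 8 h (15.5%), 1314 higher (8.42%) and 1101 lower (7.05%). With arrays centred on their medians, 479 were higher and 1467 lower there, and without C57BL/6 8 h replicate 2 the count was 469. Of the 636 genes that rose in AKR/N, 443 also rose in C57BL/6, which is 69.65% of the AKR/N list and 33.71% of the C57BL/6 list. Of the 467 that fell, 346 also fell, 74.09% and 31.43% of the lists, and 1 gene of each list was called the other way. The sign was the same in 618 of the 636 (97.17%, against 57.46% of all genes above 0) and in 452 of the 467 (96.79%, against 42.54% below 0). The median change of the genes that rose was 0.78 in AKR/N and 0.67 in C57BL/6, and that of the genes that fell was −0.73 in AKR/N and −0.69 in C57BL/6. The beta-actin ratio was also higher at 12 h in that strain, at 2.52 and 3.57, against 2.04 and 2.0 at 8 h, and the part of RNA quality in this agreement was not tested. The p53 list gave 7 rises among 21 in AKR/N and 14 in C57BL/6, interferon-stimulated genes 1 of 18 and 7, and division genes 2 falls of 27 and 7, without a test of these differences.

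**Figure D4:**
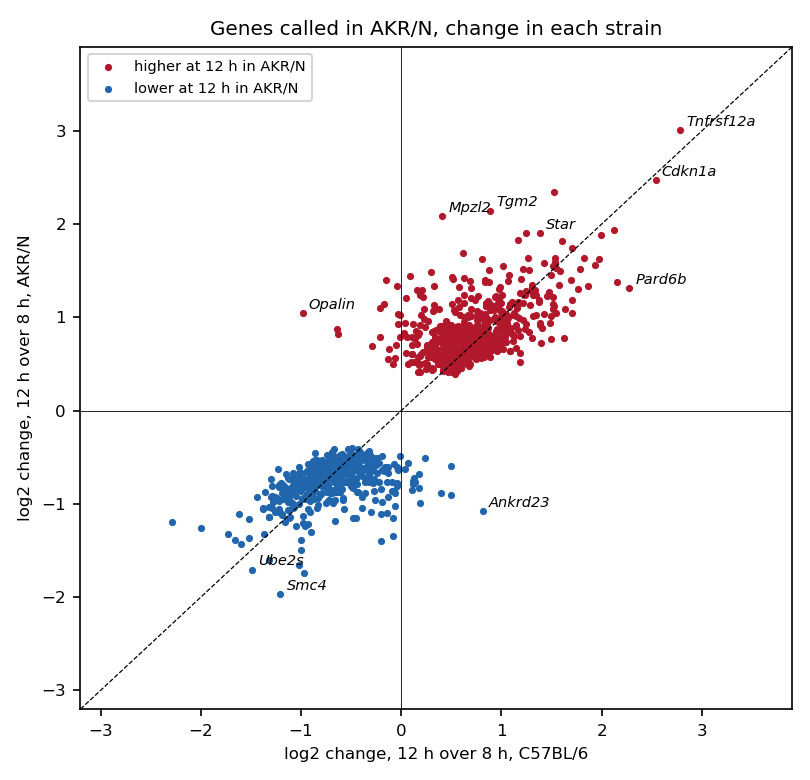
Log2 change of 12 h over 8 h in AKR/N (y axis) against the same change in C57BL/6 (x axis) for the 1103 genes called in AKR/N, red where higher and blue where lower. The dashed line marks equal changes. Most points share their sign, and Mpzl2 (2.09 and 0.41) and Tgm2 (2.15 and 0.89) lie far above the line.

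No gene passed the test of the difference between the strains in the 12 h against 8 h change. By limma, 0 of 15614 were called (0%), 836 had an unadjusted p under 0.05, and the smallest adjusted p was 0.189. Cdkn1a had 485 and 535 at 12 h in C57BL/6 testes, against 88.2 and 62.3 at 8 h there, a change of 2.54 ± 0.26 (adjusted p = 0.00125) beside 2.47 in AKR/N, so that the difference was −0.07 ± 0.37 (adjusted p = 0.996) and its sign turned under some settings. Tgm2 had 415 and 334 at 12 h in C57BL/6, against 185 and 203 at 8 h, and the difference was 1.26 ± 0.26 (adjusted p = 0.568). Mpzl2 had 17.7 and 14.2 at 12 h in C57BL/6, against 9.78 and 6.49 at 8 h, with a difference of 1.68 ± 0.36 (adjusted p = 0.568). The smallest p-values belonged to Opalin (2.03 ± 0.31), 1700104B16Rik (1.30 ± 0.19) and Pgpep1 (−1.34 ± 0.20), each at an adjusted p of 0.189, and Ankrd23 (−1.89 ± 0.35, adjusted p = 0.568). Opalin and Ankrd23 were among the low signals, with 28.6 and 23.5 (Opalin) and 7.97 and 12.3 (Ankrd23) at 12 h in AKR/N, against 4.27 and 4.43 and 32.1 and 46.9 at 8 h.

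The counts of the earlier and later interval are given side by side, with no test of the counts. Between 10 h and 8 h, 1 gene was called in AKR/N and 1079 in C57BL/6 (6.91%), 624 higher (4%) and 455 lower (2.91%), or 198 and 242 with arrays centred on their medians. Between 12 h and 10 h, 178 were called in AKR/N and 0 in C57BL/6 (0%), where 1359 had an unadjusted p under 0.05. These counts turned on single arrays: the C57BL/6 count between 10 h and 8 h was 3 to 93 when 1 array was left out, lowest without 8 h replicate 2. The beta-actin ratio at 10 h was 1.87 and 1.99 in AKR/N and 2.45 and 2.37 in C57BL/6. The difference between strains in the 10 h against 8 h change was called for 1 gene (0.0064%), and 996 had an unadjusted p under 0.05. That gene was Pard6b, a cell polarity gene. In AKR/N it had 46.7 and 47.6 at 10 h, against 33.8 and 45.4 at 8 h, and in C57BL/6 it had 139 and 137 at 10 h, against 25.1 and 17.9 at 8 h (difference −1.85 ± 0.21, adjusted p = 0.0332). By 12 h it had 138 and 107 in AKR/N and 163 and 166 in C57BL/6, and between 12 h and 8 h it rose in both strains.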

How the data were processed

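The authors deposited a table of probe-set signals for the 20 arrays, and the unit is intensity, judged by the values, which hold no number below 0 and a long high tail. Trimmed of 2% at either end, the mean of each array was 125.001, so the arrays were scaled to a common level before deposit. What software and method made the signals is not given in the sources used here. Of 45101 probe sets, 64 controls were left out, and 34945 had 1 gene in the chip annotation, 932 several and 9160 none. Entrez IDs matched 34741 to a reference and changed 0 symbols. Log2(signal + 16) was used, each of 18193 genes was read by its probe set of highest mean, and 15614 genes were tested, whose highest heated group mean reached the 40th percentile (signal 17.6). Of these, 1535 have probe sets with probes shared between transcripts. Changes of other probe sets are given above for some genes only.

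Limma 3.58.1 (R 4.3.3) fitted 1 mean per group to the 16 heated arrays without the controls, with moderated variances (prior 3.48 and residual 8 degrees of freedom) and Benjamini-Hochberg adjustment over all genes tested. The fit was tested on simulated data with independent noise for each gene and array. The simulation held no deviation shared across an array and no difference in RNA quality, so it does not test the calls against these. Plots used matplotlib 3.10.9 in Python 3.11.15.

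The comparison, gene lists and alternatives were chosen with earlier results of these data known. The naming rule took the largest called changes whose arrays do not overlap, at most 14 per direction, up to 4 members of each list with the smallest adjusted p, and fixed anchors such as Hspd1, Star and Cdkn1a. Other comparisons took up to 4 per direction. Genes outside the rule are called members of lists, values set beside a named gene or marked in the text. The 36 lists hold chaperones, stress, metabolic and germ cell pathways and cell markers. They are described by counts and medians, with no test. Alternatives were the scaling, pseudocount, filter, probe-set rule, arrays in the fit, intensity trend, replicate block, leaving out each array and, added later, the beta-actin ratio as a covariate and the C57BL/6 comparisons with 10 h. Promoters came from RefSeq.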

Additional observations from a re-analysis of the deposited data

Results flagged for a closer look

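The change of Pard6b between 10 h and 8 h after heat differed between the strains, with a difference of −1.85 ± 0.21 (SE) on the log2 scale, AKR/N minus C57BL/6, and a limma adjusted p of 0.0332. The change was 0.19 in AKR/N and 2.05 in C57BL/6. The comparison was added after the data were seen, and the call was lost without any 1 of its 8 arrays, where the difference stayed between −2.0 and −1.70.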

How the results depend on the processing

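The number of genes called between 12 h and 8 h in AKR/N depended on the setting. All 1103 kept their direction with the beta-actin ratio in the fit, which does not test the part of RNA quality. They also kept it without any 1 of the 4 arrays, an outcome fixed in advance by their lack of overlap. The count of 1103 became 601 with arrays centred on their medians, 1703 with a pseudocount of 64, 1715 with an intensity trend, 4 with the beta-actin ratio as a covariate and 0 from the 4 arrays alone, which leave fewer arrays for the spread. It ran from 35 to 616 without 1 array. The count of 1 between 10 h and 8 h became 2 with a pseudocount of 1, 54 with 64, 150 with the trend, 0 with the mean of probe sets and 0 from the 4 arrays alone, and ran from 0 to 1 without 1 array. The count of 178 between 12 h and 10 h became 23 with centring, 41 with a pseudocount of 1, 584 with 64, 84 with no filter, 417 with a stricter filter, 330 with all 20 arrays, 1 from the 4 arrays alone, 604 with the trend and 0 with the covariate, and ran from 1 to 39 without 1 array. The labels do not say whether the replicate numbers pair the samples. Deviations of same-numbered arrays correlated from −0.28 to 0.30 over 28 pairs of groups, with 2 above 0.1, which does not settle it. With the replicate number as a block the 1103 calls became 838, the 178 became 30 and the 1 strain difference between 10 h and 8 h became 0.

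In C57BL/6 the 2415 calls between 12 h and 8 h became 0 from the 4 arrays alone and 0 with the covariate, and ran from 469 to 2172 without 1 array. The 1079 between 10 h and 8 h became 440 with centring, 1653 with a pseudocount of 64, 1652 with a stricter filter, 0 from the 4 arrays alone, 1700 with the trend and 251 with the covariate, and ran from 3 to 93. The 0 between 12 h and 10 h became 2 with the trend and ran from 0 to 4. The 0 strain differences for 12 h against 8 h became 2 with a pseudocount of 64 and ran from 0 to 1. The 1 for 10 h against 8 h became 2 with a pseudocount of 1, 3 with 64, 3 with a stricter filter, 2 with all 20 arrays, 2 with the trend, 0 from the 8 arrays alone and 0 with the covariate, and was 0 without any 1 array. For 12 h against 10 h, 0 became 2 with quantile normalization, 1 with a pseudocount of 64, 1 from the 8 arrays alone, 1 with the trend and 2 with the covariate, and ran from 0 to 5.

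Among named genes, Mpzl2 changed by −0.18 in AKR/N and by −0.59 in the strain difference with a pseudocount of 1, Jund by −0.057 and Akr1cl by 0.26 with the mean of probe sets, and Hsph1 by −0.19 and Piwil1 by 0.067 with the covariate. The strain difference of Cdkn1a was 0.0044 with centring, 0.0068 with a pseudocount of 64 and 0.041 with the mean of probe sets. Without 1 array it ran from −0.27 to 0.14, and Egr1 from −1.81 to 0.60. With a pseudocount of 1 Mpzl2 was read from another probe set. The mean of probe sets takes in those of Jund and Akr1cl that changed by −0.77 and 1.43. The cause of the other shifts was not tested. Of the 86 named genes called between 12 h and 8 h, 24 lost the call with centring and 84 with the covariate.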
